A study of Homo sapiens with 24 samples.

Results

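The HOX genes are the 39 protein-coding homeobox genes of the HOXA, HOXB, HOXC and HOXD clusters, taken as the genes whose symbol is HOX followed by a cluster letter and a position number, out of 60675 gene identifiers in the count table. HOX proteins are transcription factors that set the identity of body segments in the embryo. Within a cluster, genes are numbered by their position, genes with the same number in different clusters (paralogs) encode related proteins, and low-numbered genes are typically used early and anteriorly whereas high-numbered genes are used late and posteriorly. Their expression is kept off by Polycomb proteins and kept on by Trithorax (MLL) proteins, retinoic acid induces the low-numbered genes, and PBX and MEIS proteins bind DNA together with HOX proteins. Adult and cancer cells commonly keep a characteristic set of active HOX genes.

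RNA sequencing was performed on MIA PaCa-2, a human pancreatic carcinoma cell line, in 2 versions. C/EBPδ-inducible cells carry a Tet-On vector that expresses the CEBPD cDNA upon doxycycline, together with the fluorescent protein mVenus, and CTRL cells carry this vector without the cDNA, together with mCherry. The inducible line is a pool of 3 clones, and each line is a single population, so that the construct, the choice of clones and the line cannot be told apart in a comparison of the lines. Both lines were sampled at 0, 8, 24 and 48 h of doxycycline (2 µg/mL), with 3 replicate wells in each of 8 groups and 24 libraries in all. No library without doxycycline was taken at 8, 24 or 48 h, so that doxycycline and time in culture cannot be told apart. The labels give the dose at 0 h as well, whereas the study describes these cells as untreated. Wells were seeded in parallel, so that p-values cover the spread between wells only.

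Libraries held 12731237 to 22598595 counts on genes. Levels are given as CPM, the count of a gene scaled to a common library size (TMM-normalized), and, where genes are compared with each other, as CPM per kb of exon. A group with 3 counts or fewer in every library was treated as being at the floor (0.130 to 0.236 CPM, depending on the library), and a fold against such a group is a lower bound. Floors cover counting error only. A gene was called at a Benjamini-Hochberg adjusted p under 0.01, over the 17023 genes in the test (edgeR, quasi-likelihood). CEBPD itself was at 3.95 ± 0.25 CPM (SD, n = 3) in CTRL cells at 0 h and 1.90 to 4.02 CPM later, against 21.6 ± 2.4, 249 ± 15, 307 ± 13 and 204 ± 7.2 CPM in C/EBPδ-inducible cells at 0, 8, 24 and 48 h. The CEBPD libraries of the lines did not overlap at any time, 0 h included.

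The clusters differed in how many genes were active. Of the 39 genes, 16 passed the filter on low counts: 5 of 11 in HOXA (chr7, minus strand), 9 of 10 in HOXB (chr17:48528526-48728750, minus strand), 2 of 9 in HOXC (chr12:53938831-54056030, plus strand) and 0 of 9 in HOXD (chr2:176092721-176190907, plus strand; all positions are GRCh38). The other 23 genes had between 0 and 92 counts over 24 libraries and at most 11 in any library, so that no difference was detectable at this depth. HOXC4 (92 counts) and HOXC5 (88 counts) had the most counts among these 23, and 67.3% of the exon bases of HOXC5 overlap other genes on its strand. HOXD1 and HOXD4 had no count in any library. The active genes lay in blocks, with HOXA2, HOXA3, HOXA11 and HOXA13 among those of HOXA, HOXB2 to HOXB9 and HOXB13 in HOXB, and HOXC6 and HOXC8 in HOXC. HOXA4 to HOXA10 lay between active genes and had 2 to 45 counts each over 24 libraries, and HOXB1, the gene at the end of its cluster, had 1 count.

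**Figure D1:**
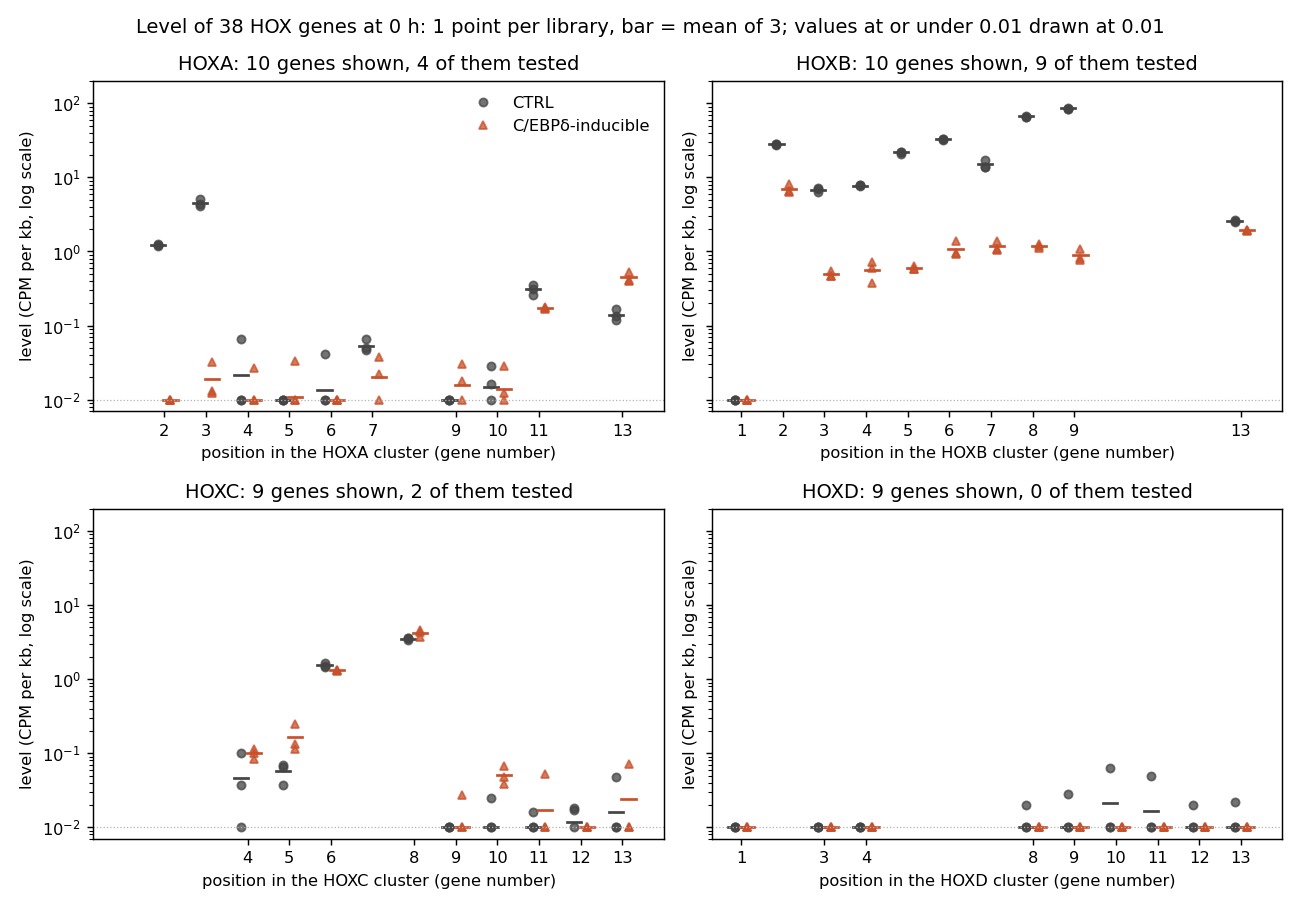
Level (CPM per kb of exon, log axis) of HOX genes at 0 h against its position in the cluster. Each point is 1 library, circles are CTRL and triangles are C/EBPδ-inducible cells, and bars are means of 3. HOXB2 to HOXB9 in CTRL cells lie between 6.86 and 85.3 CPM per kb on average, and HOXD genes lie at or near the bottom of the axis in both lines.

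The stretches before the start sites of HOXA2, HOXA4 and HOXA13 are shown because these genes of 1 cluster represent the 3 patterns that follow: HOXA2 was counted in CTRL cells and listed with a single count over all C/EBPδ-inducible libraries, HOXA4 was at the floor in both lines, and HOXA13 was higher in C/EBPδ-inducible cells. Each run holds the 250 bases upstream of a RefSeq start on GRCh38.p14, minus strand, written 5′ to 3′, for HOXA2 chr7:27102684-27102933, for HOXA4 chr7:27130758-27131007 and for HOXA13 chr7:27200092-27200341. Capitals mark matches, on either strand, to 4 motifs: CCAAT (the CCAAT box), TTNNGCAA (a C/EBP site), TATAAA (the TATA box) and TGATNNAT (a composite HOX-PBX site). The matches in these runs do not overlap each other.

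HOXA2: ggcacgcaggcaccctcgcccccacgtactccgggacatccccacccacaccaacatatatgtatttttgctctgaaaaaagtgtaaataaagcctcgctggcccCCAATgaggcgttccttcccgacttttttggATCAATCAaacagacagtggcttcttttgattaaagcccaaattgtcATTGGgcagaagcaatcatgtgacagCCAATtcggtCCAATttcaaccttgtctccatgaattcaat
HOXA4: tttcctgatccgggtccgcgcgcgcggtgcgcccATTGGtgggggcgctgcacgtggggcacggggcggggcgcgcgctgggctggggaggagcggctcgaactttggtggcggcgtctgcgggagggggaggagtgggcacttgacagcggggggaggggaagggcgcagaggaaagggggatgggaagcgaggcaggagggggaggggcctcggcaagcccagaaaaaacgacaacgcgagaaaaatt
HOXA13: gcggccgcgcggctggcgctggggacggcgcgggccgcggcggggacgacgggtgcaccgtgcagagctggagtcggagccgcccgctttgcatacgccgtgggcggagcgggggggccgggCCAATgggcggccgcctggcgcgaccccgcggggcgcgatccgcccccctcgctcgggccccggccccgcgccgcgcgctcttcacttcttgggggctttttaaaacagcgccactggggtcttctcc

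The HOXA2 window held 4 CCAAT matches and 1 HOX-PBX match, and the HOXA4 and HOXA13 windows held 1 CCAAT match each. Neither TTNNGCAA nor TATAAA was found in these 3 windows. Among 34941 RefSeq windows of the same length, 32.0% held CCAAT, 6.49% held TGATNNAT, 9.06% held TTNNGCAA and 10.8% held TATAAA. The number of CG dinucleotides was 8 for HOXA2, 26 for HOXA4 and 40 for HOXA13, with a median of 11 over the windows. RefSeq windows could be matched for 20 of the 39 genes, of which 4 were tested (HOXA2, HOXA3, HOXA11 and HOXA13). The motif TTNNGCAA occurred in 1 of their 26 windows, that of HOXC4. A match of letters is a description of the sequence and not evidence of binding.

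The comparison of the lines at 0 h asks how their HOX profiles differed before doxycycline. HOXB genes at positions 2 to 9 and HOXA2 and HOXA3 were lower in C/EBPδ-inducible cells, mostly by more than 10-fold, whereas HOXC6 and HOXC8 were not called and HOXA13 was higher. Of the 16 genes tested, 12 were lower and 1 was higher (36.3% of all genes tested were called, 19.5% as lower and 16.8% as higher). The libraries of the lines did not overlap for any of the 16 genes (56.7% of all genes tested did not overlap). The median log2 fold change (C/EBPδ-inducible minus CTRL) of the 16 was -3.73, also with genes at the floor set to their bound, against 0.022 over all genes tested. A log2 fold change under -3 was found for 10 of the 16 genes and for 203 genes (1.19%) of all those tested. HOXA2 and HOXA3 reached no more than 6 counts in any C/EBPδ-inducible library and passed the filter through CTRL cells, so that they could only be lower, and the counts over the 16 are a description.

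HOXB9, of the posterior part of the cluster, had the highest level of all HOX genes in CTRL cells. Its CPM was 216, 226 and 219 in the CTRL libraries at 0 h and 1.97, 2.80 and 2.08 in the C/EBPδ-inducible libraries. The means differed 96.5-fold, and the log2 fold change was -6.57 (SE 0.10, adjusted p = 7.33e-26 with edgeR's quasi-likelihood test). HOXB8, its neighbour, had 158, 159 and 163 CPM in CTRL libraries and 2.67, 2.84 and 3.04 CPM in C/EBPδ-inducible libraries, which was a 56.1-fold difference (log2 fold change -5.81, SE 0.084). For both genes, all CTRL libraries stood far above all C/EBPδ-inducible libraries.

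HOXB5 and HOXB6, of the middle of the cluster, showed the next largest differences. HOXB5 had 38.9, 41.1 and 40.9 CPM in CTRL libraries and 1.07, 1.19 and 1.07 CPM in C/EBPδ-inducible libraries (36.4-fold, log2 fold change -5.17, SE 0.094). HOXB6 had 85.4, 87.0 and 83.5 CPM against 2.40, 2.47 and 3.66 CPM (30.0-fold, log2 fold change -4.92, SE 0.099). The HOXB6 value is less certain in level than in direction, since 16.6% of its exon bases overlap HOXB3 and 16.3% overlap the antisense transcript HOXB-AS3, and the strand setting of the counting is not given in the sources used here.

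HOXB3, HOXB4 and HOXB7 were lower by similar folds. HOXB3 had 51.6, 53.4 and 47.8 CPM in CTRL libraries and 3.47, 4.08 and 3.49 CPM in C/EBPδ-inducible libraries (13.8-fold). HOXB4 had 15.6, 15.3 and 15.6 CPM against 0.746, 1.19 and 1.46 CPM (13.7-fold). HOXB7 had 25.9, 21.3 and 21.2 CPM against 1.60, 1.65 and 2.08 CPM (12.8-fold). The log2 fold changes of these 3 genes lay between -3.78 and -3.68, with SE between 0.12 and 0.17.

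HOXB2 and HOXB13 differed least among the HOXB genes tested. HOXB2, a low-numbered gene active in the embryonic hindbrain, had 69.3, 66.4 and 69.8 CPM in CTRL libraries and 16.3, 19.9 and 15.5 CPM in C/EBPδ-inducible libraries. This 3.98-fold difference (log2 fold change -1.99, SE 0.080) left HOXB2 as the most highly expressed HOX gene per kb in C/EBPδ-inducible cells. HOXB13, a posterior gene separated from the rest of the cluster and known as a partner of the androgen receptor in prostate, had 8.07, 7.67 and 7.95 CPM against 5.92, 5.96 and 5.80 CPM. Its 1.34-fold difference was called (log2 fold change -0.42, SE 0.087, adjusted p = 0.000242 with edgeR's quasi-likelihood test), and the libraries did not overlap.

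HOXA2 and HOXA3, which pattern hindbrain and neck in the embryo, had few or no counts in C/EBPδ-inducible cells. HOXA3 had 21.7, 19.0 and 17.6 CPM in CTRL libraries (387, 317 and 336 counts) and 1, 3 and 1 counts in C/EBPδ-inducible libraries, which was at least 125-fold lower. Of its exon bases, 17.3% overlap genes on the other strand, among them HOXA-AS2. HOXA2 had 49, 47 and 57 counts in CTRL libraries and 0 counts in all C/EBPδ-inducible libraries, at least 18.3-fold lower against a floor of 3 counts per library.

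The posterior HOXA genes and HOXC genes did not share this direction or size. HOXA13, which patterns limb ends and the hindgut, had 0.841, 0.599 and 0.680 CPM in CTRL libraries and 2.08, 2.70 and 2.03 CPM in C/EBPδ-inducible libraries. It was 3.21-fold higher (log2 fold change 1.68, SE 0.27, adjusted p = 1.02e-05 with edgeR's quasi-likelihood test), from 10 to 15 counts per CTRL library and 36 to 59 per C/EBPδ-inducible library. HOXA11 had 0.953, 0.838 and 0.680 CPM against 0.480, 0.458 and 0.451 CPM and was not called (log2 fold change -0.82, SE 0.40, adjusted p = 0.0975 with edgeR), and 27.2% of its exon bases overlap HOXA11-AS. HOXC6 (5.72, 5.03 and 5.18 against 4.59, 4.63 and 4.45 CPM) and HOXC8 (8.58, 8.74 and 8.16 against 9.06, 10.5 and 11.0 CPM) were not called, with log2 fold changes of -0.22 (SE 0.15) and 0.27 (SE 0.095). The libraries of the lines did not overlap for these genes, but the differences did not pass the threshold, except that HOXC8 was called without C/EBPδ-inducible 0 h replicate 1 (log2 fold change 0.35, adjusted p = 0.0065 with edgeR).

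The order of levels therefore differed between the lines. Per kb of exon at 0 h, the order in CTRL cells was HOXB9 (85.3 ± 2.1 CPM per kb), HOXB8 (66.5 ± 1.0), HOXB6 (32.8 ± 0.68), HOXB2 (27.9 ± 0.74), HOXB5 (21.7 ± 0.66), HOXB7 (15.0 ± 1.8), HOXB4 (7.74 ± 0.073), HOXB3 (6.86 ± 0.38), HOXA3 (4.51 ± 0.49), HOXC8 (3.51 ± 0.13), HOXB13 (2.60 ± 0.069), HOXC6 (1.54 ± 0.10), HOXA2 (1.22 ± 0.051), HOXA11 (0.309 ± 0.051) and HOXA13 (0.139 ± 0.024). No neighbours in this order had overlapping libraries. In C/EBPδ-inducible cells, it was HOXB2 (7.01 ± 0.96 CPM per kb), HOXC8 (4.23 ± 0.42), HOXB13 (1.94 ± 0.027), HOXC6 (1.32 ± 0.027), HOXB8 (1.19 ± 0.078), HOXB7 (1.17 ± 0.18), HOXB6 (1.09 ± 0.27), HOXB9 (0.883 ± 0.173), HOXB5 (0.597 ± 0.038), HOXB4 (0.566 ± 0.181), HOXB3 (0.495 ± 0.047), HOXA13 (0.448 ± 0.074), HOXA11 (0.173 ± 0.006), HOXA3 (0.0191 ± 0.0111) and HOXA2 (0). There, neighbours from HOXB8 to HOXB9 and from HOXB5 to HOXA13 overlapped. Counted on exon bases free of other genes, HOXB6 moved from rank 7 to rank 4 in C/EBPδ-inducible cells.

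As a whole, HOXB2 to HOXB9 summed to 660.3 to 670.0 CPM in CTRL libraries at 0 h (mean 663.6 ± 5.5) and to 30.2 to 36.1 CPM in C/EBPδ-inducible libraries (mean 32.9 ± 3.0). The 9 HOXC genes summed to 14.1 ± 0.65 and 15.6 ± 1.1 CPM. In bulk RNA, fewer cells that express a gene and less RNA per cell cannot be told apart.

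Most of the differences between the lines were present at each time of doxycycline. At 8 h, 12 of the 16 genes were lower and 0 were higher (39.4% of all genes tested were called, 20.3% as lower and 19.1% as higher). HOXA13, which was higher at 0 h, was not called at 8 h (0.969 ± 0.271 CPM in CTRL and 1.57 ± 0.28 CPM in C/EBPδ-inducible cells). HOXC6 was not called (log2 fold change -0.46, SE 0.15), but passed without C/EBPδ-inducible 8 h replicate 3 (adjusted p = 0.000971 with edgeR) or CTRL 8 h replicate 1 (adjusted p = 0.00412 with edgeR). At 24 h, the comparison used in the study for genes regulated by C/EBPδ, 13 were lower and 2 were higher (39.1% of all genes tested were called, 20.9% as lower and 18.1% as higher). At 48 h, 14 were lower and 2 were higher (40.3% of all genes tested were called, 21.0% as lower and 19.3% as higher). HOXB2 to HOXB9, HOXA2 and HOXA3 were lower at all 4 times.

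**Figure D2:**
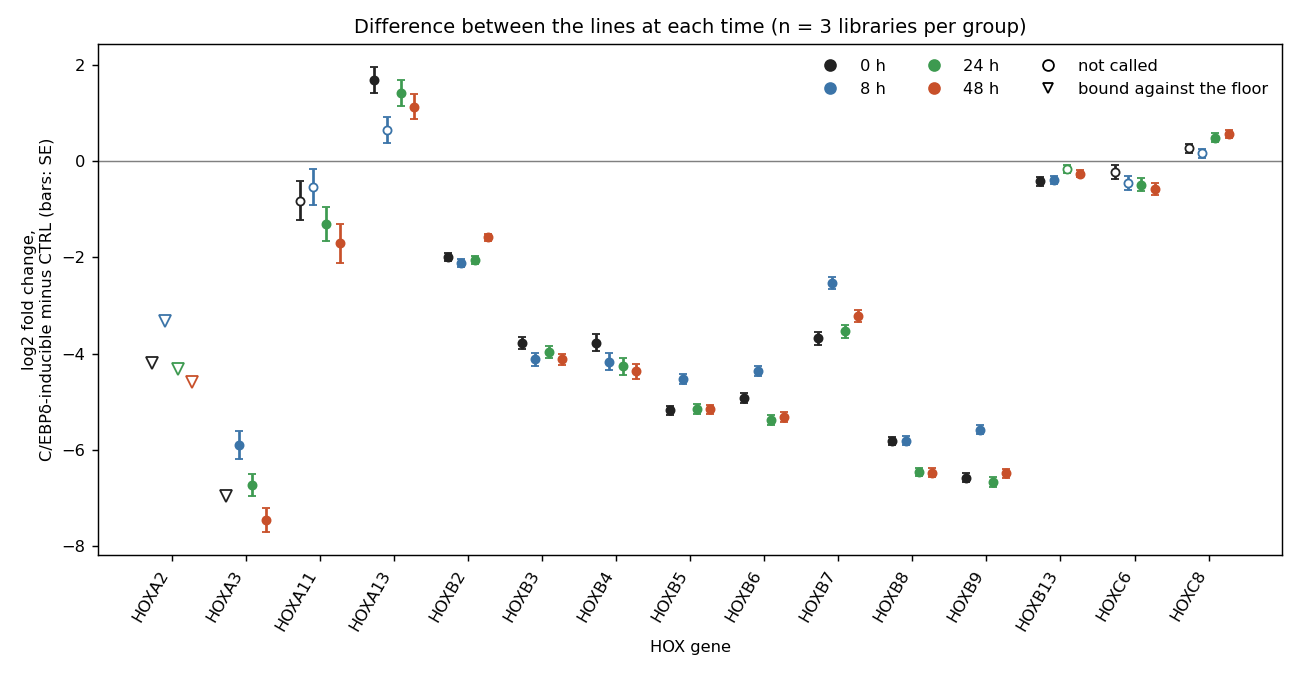
Log2 fold change (C/EBPδ-inducible minus CTRL) of HOX genes tested at 0, 8, 24 and 48 h, with SE as bars and 3 libraries per group. Open circles did not pass the threshold and open triangles are bounds against the floor. HOXB9 lies between -6.66 and -5.58 and HOXC8 between 0.17 and 0.57 over the 4 times.

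At 24 h, HOXB9 had 254, 254 and 252 CPM in CTRL libraries and 1.55, 2.72 and 3.13 CPM in C/EBPδ-inducible libraries (102.6-fold, log2 fold change -6.66, SE 0.098). HOXB8 had 151, 143 and 147 CPM against 1.35, 1.57 and 2.03 CPM (89.0-fold, log2 fold change -6.46, SE 0.090). These were the largest folds among HOX genes above the floor in both lines at 24 h, after HOXA3 (20.7 and 0.196 ± 0.170 CPM, 105.7-fold). HOXA3 had only 0 to 6 counts per C/EBPδ-inducible library at 24 h, a mean within the range of the floor. Its fold and its place in this order are therefore uncertain. HOXB6 differed 41.9-fold, HOXB5 35.7-fold, HOXB4 19.4-fold, HOXB3 15.9-fold, HOXB7 11.6-fold and HOXB2 4.16-fold, and HOXA2 was at least 19.9-fold lower.

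The smaller differences at 24 h went both ways. HOXA13 was higher in C/EBPδ-inducible cells (1.40, 2.29 and 1.59 against 0.426, 0.776 and 0.746 CPM, log2 fold change 1.41, SE 0.27), and HOXC8 was 1.40-fold higher (12.8, 14.5 and 13.5 against 11.1, 9.36 and 8.72 CPM, log2 fold change 0.49, SE 0.088). HOXA11 was 2.53-fold lower and HOXC6 1.40-fold lower, but each of these calls was lost without any of 4 libraries. For HOXA11, these were CTRL 24 h replicates 1 and 3 and C/EBPδ-inducible 24 h replicates 1 and 2 (adjusted p up to 0.0304 with edgeR), and for HOXC6 replicates 1 and 3 of each line at 24 h (adjusted p up to 0.0581 with edgeR). HOXB13 was not called at 24 h (7.76, 7.06 and 7.58 against 8.78, 8.72 and 7.70 CPM, log2 fold change -0.17, SE 0.080). At 48 h, the call of HOXB13 (log2 fold change -0.26) was lost without CTRL replicate 1 or 3 or C/EBPδ-inducible replicate 1 or 3 (adjusted p up to 0.0374 with edgeR), and the call of HOXA11 without CTRL 48 h replicate 3 (adjusted p = 0.0146 with edgeR).

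HOX levels also changed over time in CTRL cells, which lack the CEBPD cDNA of the vector. Comparisons of a line at 8, 24 and 48 h share its libraries at 0 h. At 8 h, 4 of the 16 genes fell and 0 rose (7.22% of all genes tested were called, 4.39% as lower and 2.83% as higher). HOXA3 fell from 19.4 ± 2.1 to 9.77 ± 0.16 CPM (log2 fold change -0.99, SE 0.12), HOXB5 from 40.3 ± 1.2 to 28.1 ± 0.51 CPM, HOXB6 from 85.3 ± 1.8 to 60.7 ± 3.0 CPM and HOXB8 from 159.8 ± 2.5 to 126.3 ± 4.0 CPM, with no overlap between the libraries of the 2 times (25.4% of all genes tested did not overlap). At 24 h, only HOXB5 was called (38.9, 41.1 and 40.9 CPM at 0 h and 31.4, 30.3 and 34.2 CPM at 24 h, log2 fold change -0.34, SE 0.057), which was 1 of 16 genes (3.42% of all genes tested were called, 1.79% as lower). HOXA3 was at 21.2, 19.6 and 21.2 CPM at 24 h, which overlapped its values at 0 h.

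At 48 h in CTRL cells, 7 of the 16 genes rose and 0 fell (33.2% of all genes tested were called, 16.9% as higher and 16.3% as lower). HOXB9 rose from 220.5 ± 5.4 to 334.2 ± 15.0 CPM (log2 fold change 0.60, SE 0.062), HOXB4 from 15.5 ± 0.15 to 24.6 ± 2.6 CPM and HOXB3 from 50.9 ± 2.8 to 66.9 ± 2.0 CPM. HOXB13 rose from 7.90 ± 0.21 to 11.4 ± 0.37 CPM, HOXC6 from 5.31 ± 0.36 to 9.22 ± 0.94 CPM and HOXC8 from 8.49 ± 0.30 to 11.0 ± 0.067 CPM. The call of HOXC8 was lost without CTRL 0 h replicate 1 or 3 (adjusted p up to 0.0161 with edgeR). Summed over HOXB2 to HOXB9, CTRL cells went from 663.6 ± 5.5 CPM at 0 h to 556.7 ± 5.5, 657.6 ± 4.7 and 807.7 ± 18.2 CPM at 8, 24 and 48 h.

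In C/EBPδ-inducible cells, HOXB2 to HOXB9 stayed below their CTRL levels at each time. Their sum was 32.9 ± 3.0, 32.0 ± 0.13, 28.5 ± 3.1 and 37.6 ± 1.8 CPM at 0, 8, 24 and 48 h. At 8 h, HOXB7 and HOXB9 rose and 0 genes fell, which was 2 of 16 (18.4% of all genes tested were called, 8.28% as higher and 10.1% as lower). HOXB7 had 1.60, 1.65 and 2.08 CPM at 0 h and 4.31, 3.34 and 3.38 CPM at 8 h (log2 fold change 1.07, SE 0.19), and HOXB9 had 1.97, 2.80 and 2.08 CPM against 3.89, 3.91 and 4.79 CPM (log2 fold change 0.84, SE 0.16). HOXB2 was called as lower without 0 h replicate 3 (log2 fold change -0.36, adjusted p = 0.00935 with edgeR). At 24 h, HOXB7 and HOXB9 were back at 1.89 ± 0.41 and 2.47 ± 0.82 CPM, where neither was called.

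At 24 h in C/EBPδ-inducible cells, HOXC8 and HOXB13 rose and HOXB6 and HOXB8 fell, 4 of 16 genes (10.4% of all genes tested were called, 4.97% as higher and 5.45% as lower). HOXC8 had 9.06, 10.5 and 11.0 CPM at 0 h and 12.8, 14.5 and 13.5 CPM at 24 h (log2 fold change 0.41, SE 0.088), and HOXB8 had 2.67, 2.84 and 3.04 CPM against 1.35, 1.57 and 2.03 CPM (log2 fold change -0.77, SE 0.16). HOXB13 rose from 5.92, 5.96 and 5.80 to 7.76, 7.06 and 7.58 CPM and HOXB6 fell from 2.40, 2.47 and 3.66 to 1.60, 1.34 and 2.16 CPM. The call of HOXB8 was kept without each library. The call of HOXC8 was lost without 0 h replicate 1 (adjusted p = 0.0121 with edgeR), that of HOXB6 without 0 h replicate 3 or 24 h replicate 1 or 2 (adjusted p up to 0.0848 with edgeR), and that of HOXB13 without any library of these 6 but 24 h replicate 2 (adjusted p up to 0.0346 with edgeR). The count over the 16 genes fell to 2 without 0 h replicate 1, 0 h replicate 3 or 24 h replicate 1.

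At 48 h in C/EBPδ-inducible cells, HOXB2, HOXB9, HOXB13 and HOXC8 rose and HOXB8 fell, 5 of 16 genes (28.7% of all genes tested were called, 14.8% as higher and 13.9% as lower). HOXC8 reached 16.0, 16.4 and 16.4 CPM (log2 fold change 0.67, SE 0.087) and HOXB13 9.58, 10.2 and 8.77 CPM (log2 fold change 0.70, SE 0.084), and both calls were kept without each library. The other calls were not: the count fell to 3 without 0 h replicate 1, 48 h replicate 2 or 48 h replicate 3 and to 2 without 0 h replicate 3. Without 1 of these libraries or 0 h replicate 2, the adjusted p with edgeR reached 0.0726 for HOXB2, 0.0138 for HOXB9 and 0.0784 for HOXB8. HOXC8 and HOXB13 also rose in CTRL cells at 48 h, and for both the difference between the lines in this change did not pass the threshold (interaction log2 0.30, SE 0.13, and 0.16, SE 0.12).

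**Figure D3:**
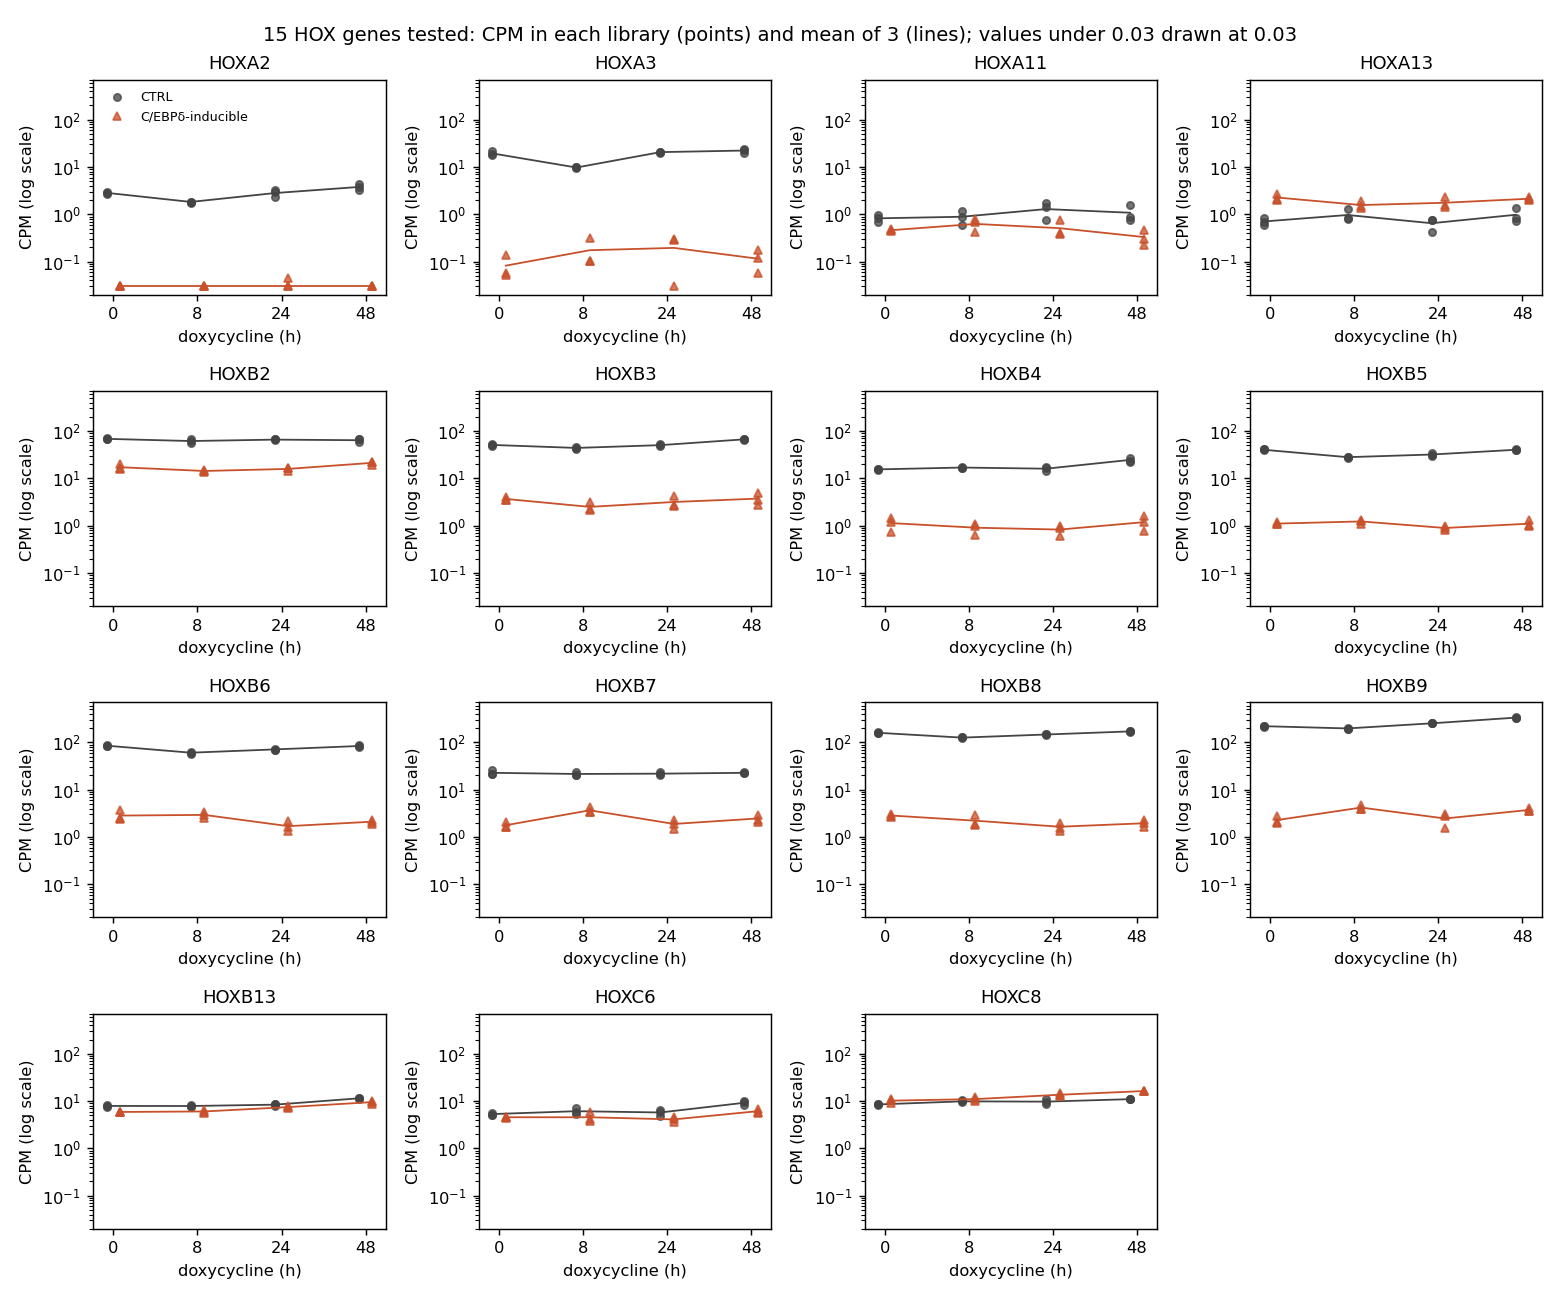
CPM (log axis) of HOX genes tested at 0, 8, 24 and 48 h of doxycycline, with 1 point per library and lines through the means of 3. Circles are CTRL and triangles are C/EBPδ-inducible cells. HOXB2 to HOXB9, HOXA2 and HOXA3 stay apart at all times, and HOXC8 reaches 16.0 to 16.4 CPM at 48 h in C/EBPδ-inducible cells against 10.9 to 11.0 CPM in CTRL cells.

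The interaction asks whether the change from 0 h differed between C/EBPδ-inducible and CTRL cells, and it is the comparison that sets the difference at 0 h aside. At 24 h, 0 of the 16 genes passed the threshold with edgeR (3.54% of all genes tested did), 2 had an unadjusted p under 0.05, and 0 passed with DESeq2 or limma. The largest estimate among genes above the floor was that of HOXB8 (log2 -0.65, SE 0.17, adjusted p = 0.0148 with edgeR), which was called without C/EBPδ-inducible 24 h replicate 3, so that the count became 1. At 8 h, HOXB9 (log2 1.00, SE 0.18) and HOXB7 (log2 1.15, SE 0.21) were higher, 2 of 16 genes (2.59% of all genes tested were called, 1.48% as higher). The call of HOXB7 was lost without C/EBPδ-inducible 8 h replicate 1 (adjusted p = 0.0117 with edgeR). At 48 h, HOXB8 was called as lower (log2 -0.66, SE 0.16, adjusted p = 0.00819 with edgeR), 1 of 16 genes (5.91% of all genes tested were called, 2.67% as lower). This call was lost in 9 of 12 fits that left out a library (adjusted p up to 0.0750 with edgeR), namely any of the 6 libraries at 0 h, CTRL 48 h replicate 3 or C/EBPδ-inducible 48 h replicates 1 or 2. HOXB2 was not called (log2 0.40, SE 0.11, adjusted p = 0.0205 with edgeR) but passed without C/EBPδ-inducible 0 h replicate 2 (log2 0.52, adjusted p = 0.00191 with edgeR).

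Of 18 listed antisense and long non-coding genes of the HOX clusters, 5 were tested at 0 h, and 4 were lower and 0 were higher in C/EBPδ-inducible cells, with a median log2 fold change of -3.65 (19.5% of all genes tested were lower and 16.8% higher, with a median of 0.022). HOXA-AS2, between HOXA3 and HOXA4, had 16.4 to 18.1 CPM in CTRL libraries and at most 3 counts in a C/EBPδ-inducible library, at least 111-fold lower. HOXB-AS3, at HOXB5 and HOXB6, was at least 29.2-fold lower (4.54 ± 0.56 against 0.138 ± 0.031 CPM). HOTAIRM1, described as induced by retinoic acid, had 2.01 ± 0.43 against 0.153 ± 0.041 CPM, and HOXB-AS1, next to HOXB2, 4.44 ± 0.41 against 2.63 ± 0.69 CPM. HOXA11-AS was not called. HOXA-AS2, HOXB-AS3 and HOTAIRM1 had at most 3, 3 and 4 counts in a C/EBPδ-inducible library at 0 h. These genes passed the filter through CTRL cells, so that they could hardly be called other than lower. The count of lower genes and the median, which is the value of HOTAIRM1, are therefore a description. HOXA-AS2 and HOXB-AS3 share exon bases with HOX genes on the other strand, so that reads of the overlapping parts are uncertain.

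The HOX clusters also hold genes of the miR-196 and miR-10 families, and miR-196 is known to repress HOXB8 mRNA. Mature sequences from RefSeq (GRCh38.p14) are shown because a row for MIR196A1, whose 5p arm lies at chr17:48632532-48632553 (minus strand) near HOXB9, had counts in CTRL libraries and none in C/EBPδ-inducible libraries, and miR-10a-5p is shown as the other family of the HOXB cluster. Capitals mark the seed (bases 2 to 8).

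hsa-miR-196a-5p: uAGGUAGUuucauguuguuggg
hsa-miR-196b-5p: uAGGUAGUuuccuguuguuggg
hsa-miR-10a-5p: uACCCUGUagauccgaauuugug

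The members of the miR-196 family, from the HOXB and HOXC (miR-196a) and HOXA (miR-196b) clusters, share the seed AGGUAGU. The row of MIR196A1 summed to 3, 9, 5 and 10 counts over the CTRL libraries at 0, 8, 24 and 48 h and to 0 counts in each C/EBPδ-inducible group. No CTRL library at 0 or 24 h had more than 2 counts, so that both lines were at the floor at these times. The 5p arm also lies within the annotated span of HOXB7, on the same strand. Reads of this row cover the gene and not the mature microRNA, and the gene was not tested.

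Genes flanking the clusters went in both directions, on a background of 36.3% of all genes tested that were called at 0 h. At this time, 5 other genes inside HOXB were tested and all 5 were lower (19.5% of all genes tested were). HOXB-AS1 and HOXB-AS3, already counted above, are among them. HOXB-AS3, LINC03057 and LINC02086 had means of 0.138, 0.135 and 0.049 CPM in C/EBPδ-inducible cells, within or under the range of the floor. With such values they could hardly be called other than lower, and the count is a description. On the HOXB1 side, 22 genes within 1 Mb were tested, of which 4 were lower and 1 was higher, and on the HOXB13 side 16 genes, of which 5 were lower and 4 were higher. Next to HOXA, 2 of 5 genes on the low-numbered side and 0 of 4 on the HOXA13 side were lower, and 1 on each side was higher. Next to HOXC, 6 of 28 genes on the HOXC13 side were lower and 4 were higher, and of 6 genes on the low-numbered side 0 were lower and 2 were higher. Next to HOXD, 2 of 3 genes on the HOXD13 side were lower, and 0 of 2 on the other side were called. SKAP2, an adaptor of Src family kinases, is the tested gene nearest to HOXA on its low-numbered side (97.8 kb away). It had 57.8 to 69.1 CPM in CTRL libraries and 5.71 to 6.42 CPM in C/EBPδ-inducible libraries (log2 fold change -3.37, SE 0.090). SKAP1-AS2, 219.8 kb beyond HOXB1, had 1.73 CPM in CTRL and 0.033 CPM in C/EBPδ-inducible cells. The latter value lies under the floor, so that SKAP1-AS2 could hardly be called other than lower. SKAP1, a related adaptor gene beyond HOXB1, was not called (0.413 ± 0.184 against 0.116 ± 0.065 CPM). Next to HOXD, LNPK, 89.9 kb away, was lower (53.6 ± 7.2 against 40.1 ± 2.5 CPM), and the genes nearest to HOXC on either side, SMUG1 and CALCOCO1, were not called.

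**Figure D4:**
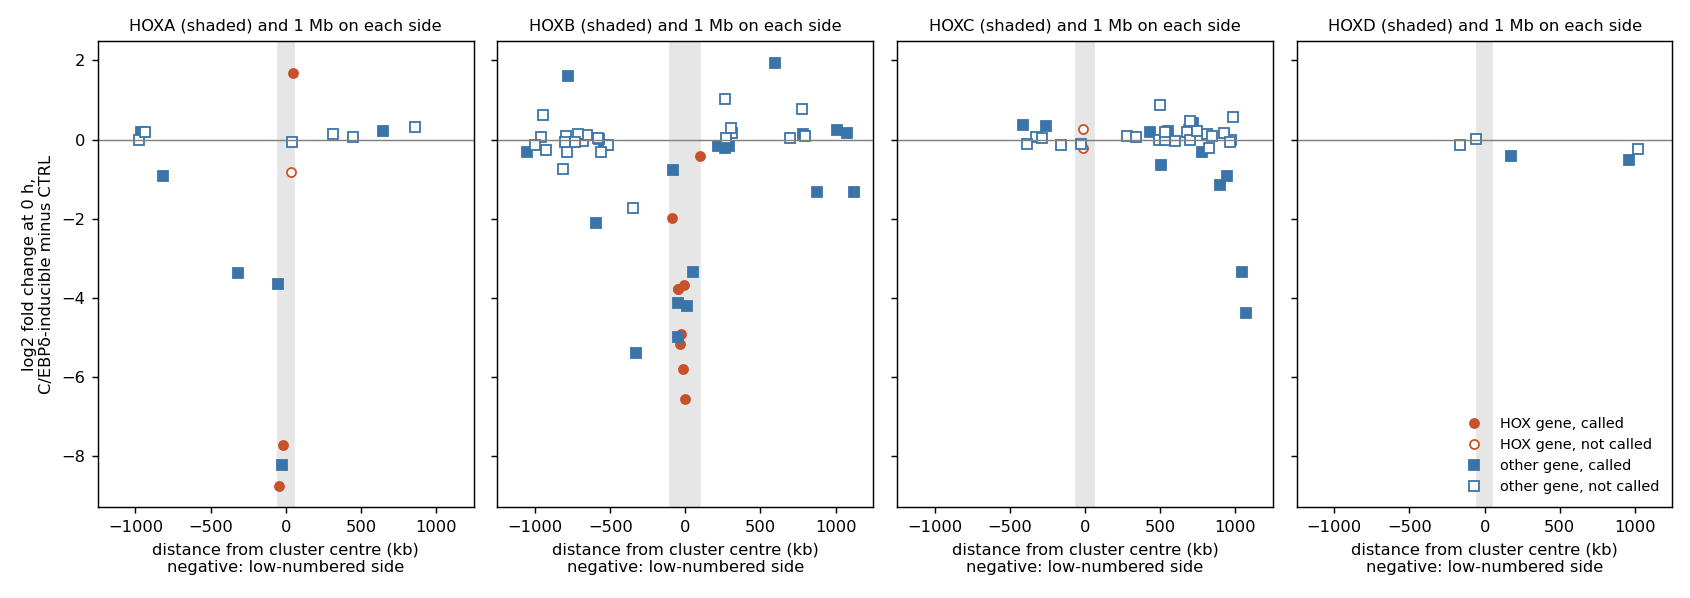
Log2 fold change (C/EBPδ-inducible minus CTRL) at 0 h of genes tested within 1 Mb of each cluster, against the distance of the middle of the gene from the centre of the cluster in kb, with negative values towards the low-numbered genes. The cluster is shaded, circles are HOX genes, squares are other genes and filled symbols were called. Values of genes at the floor, such as HOXA2, HOXA3 and HOXA-AS2, are fitted values and not bounds. HOXB genes and other genes inside HOXB lie below 0, and genes outside scatter around 0 with exceptions such as SKAP2 at -3.37.

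The TALE homeobox genes encode the PBX, MEIS and PKNOX proteins that bind DNA with HOX proteins. At 0 h, 7 of 9 listed genes were tested, of which 4 were lower and 1 was higher (19.5% and 16.8% of all genes tested), with a median log2 fold change of -0.22. MEIS3 was the gene that was higher (5.30 ± 0.67 against 11.2 ± 0.78 CPM, log2 fold change 1.07, SE 0.12). At 24 h, 4 were again lower and 1 higher (20.9% and 18.1% of all genes tested).

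Of 32 Polycomb genes tested, which keep HOX clusters silent, 8 were higher and 5 were lower in C/EBPδ-inducible cells at 0 h, a share near the 36.3% called among all genes tested. JARID2, a cofactor of Polycomb repressive complex 2, was higher (14.6 ± 0.66 against 37.0 ± 1.1 CPM, log2 fold change 1.34, SE 0.061), and PHF19 was lower (156.3 ± 3.5 against 106.9 ± 6.9 CPM, log2 fold change -0.55, SE 0.051). Of 20 Trithorax and MLL genes tested, 1 was higher (SETD1A, log2 fold change 0.17) and 5 were lower (KMT2C, a histone methyltransferase, log2 fold change -0.68), a share below the same 36.3%. Over the tested genes, the median log2 fold change was 0.073 for Polycomb and -0.013 for Trithorax and MLL, close to the 0.022 of all genes tested.

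Of 12 retinoic acid pathway genes tested at 0 h, 4 were higher and 5 were lower, with a median log2 fold change of -0.074 (16.8% of all genes tested were higher and 19.5% lower). ALDH1A1, which makes retinoic acid from retinaldehyde, had 1848 ± 36 CPM in CTRL and 3.72 ± 2.0 CPM in C/EBPδ-inducible cells (log2 fold change -8.99, SE 0.29), and CYP26B1, which degrades retinoic acid, had 0.300 ± 0.052 against 7.18 ± 0.57 CPM (log2 fold change 4.56, SE 0.22). ALDH1A2 and ALDH1A3, of the same enzyme family as ALDH1A1, were among the genes called as higher. Both the synthesis and the degradation side thus held called genes, and those of the ALDH1A family went both ways. Of 11 ParaHox and other homeobox genes tested, 3 were higher (DLX4, log2 fold change 1.34) and 2 were lower (PDX1, a pancreatic regulator, log2 fold change -1.76), with a median of 0.094 over the 11, on the same background. PDX1 had 9 to 15 counts per CTRL library and 2 to 6 per C/EBPδ-inducible library (0.647 ± 0.125 against 0.184 ± 0.085 CPM). It was again lower at 8 and 48 h but was not called at 24 h. With at most 9 counts in a C/EBPδ-inducible library at any time, PDX1 passed the filter through CTRL cells and could hardly be called higher. PDX1 is also counted among the ductal markers below.

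Markers of the labelled tissue mostly moved with these differences. Of 12 pancreatic ductal markers, 10 were tested at 0 h, and 7 were lower and 0 were higher in C/EBPδ-inducible cells (19.5% and 16.8% of all genes tested), with a median log2 fold change of -1.40. Their sum was 2281 to 3145 CPM over all CTRL libraries and 180.7 to 316.1 CPM over all C/EBPδ-inducible libraries, with CFTR at the floor in all 8 groups. CDH1 was among the markers lower at 0 h (0.121 ± 0.114 against 1.05 ± 0.46 CPM in CTRL cells), from 0 to 4 counts per C/EBPδ-inducible library. It was the only marker called as higher at 8 h (4.76 ± 1.3 against 0.709 ± 0.494 CPM in CTRL cells) and at 48 h (3.74 ± 1.3 against 1.03 ± 0.92 CPM). At 8 h and at 48 h, 6 markers were called as lower (20.3% of all genes tested at 8 h and 21.0% at 48 h). KRT8 (1561 CPM) and KRT18 (1155 CPM) made up most of the CTRL sum at 0 h and lie within 1 Mb of HOXC13. Of 9 markers of blood, vessel, stromal, acinar and endocrine cells, 7 or 8 were at the floor in each group, and their sum was at most 2.08 CPM. The part of these marker differences in the HOX differences was not tested.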

How the data were processed

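RNA was depleted of ribosomal RNA and sequenced by the authors, who trimmed the reads with Trimmomatic, aligned them with Hisat2 to GRCh38 and counted them on Ensembl genes with HTSeq. The deposited table holds whole-number counts without normalization, filter or pooling, and all 24 columns were mapped to a sample. The strand setting of HTSeq is not given in the sources used here. As a check on the table, 70.9% of 680 genes with all exon bases covered by exons on the other strand had a count, against 19.8% of 797 genes covered on their own strand.

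Counts were analysed in R 4.3.3 with edgeR 4.0.16 (filterByExpr, TMM, glmQLFit and glmQLFTest) in a single model of the 8 groups and 24 libraries. Contrasts were the lines at each time, each time against 0 h within a line, and the interaction of line and time, two-sided, at an FDR of 0.01 over 17023 genes. Exon lengths, coordinates and overlaps came from GENCODE 44 on GRCh38, a later annotation than the authors used, which matched 56558 of 60675 identifiers. Total counts per library set the precision, and n is 3 throughout. With 3 libraries against 3, a permutation test cannot reach the threshold, and p-values of single genes come from the fit across all genes.

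Libraries were grouped by the sample titles. All 39 genes were accounted for, values per library were given for those called at 0 or 24 h (at most the 14 with the largest fold changes, with others added where a call turned on single libraries) and the highest of each cluster, and of each gene list the called gene with the largest change in each direction at 0 h was named. The flanking genes, the non-coding genes named and the sequences shown were picked with their values known. A few genes that this rule names are counted in the totals but not reported here. The genes and the gene lists were chosen with earlier results of these data known. Replicate numbers were checked for pairing as the correlation of deviations from group means between same-numbered libraries. For CTRL cells at 24 h against 0 h all 3 pairs exceeded 0.1 (mean r = 0.16), with the numbers taken from the labels, and in no other comparison did all pairs.

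Alternatives were DESeq2 1.42.0, RLE size factors, no filter, a mean of at least 10 counts, a model of only the groups compared, the replicate number as a block, limma 3.58.1 on log2(CPM + 1), an FDR of 0.05, exon bases free of overlap, and leaving out each library. On counts simulated from these libraries (16572 genes tested, lines at 0 h), edgeR recovered 69% of 100 genes changed by a log2 of 1 and 95% of 100 changed by a log2 of 2, with 1 false call. For the interaction at 24 h (16602 genes tested), it recovered 67% and 81% of such genes, also with 1 false call. The changed genes were drawn at random, and each gene had the same mean level in all groups before the change. HOX genes that are far lower in 1 line were not simulated in this way, so that these shares need not apply to them.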

Additional observations from a re-analysis of the deposited data

Results flagged for a closer look

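The change from 0 h, over which doxycycline and time in culture cannot be told apart, differed between the lines for 3 HOX values by the interaction test of edgeR at an FDR of 0.01. At 8 h, the change in C/EBPδ-inducible cells exceeded that in CTRL cells by a log2 of 1.00 for HOXB9, which rose in all 3 C/EBPδ-inducible libraries (from at most 2.80 to at least 3.89 CPM) and was not called in CTRL cells (log2 fold change -0.16), and by a log2 of 1.15 for HOXB7, which was not called in CTRL cells either (log2 fold change -0.08). At 48 h, HOXB8 differed by a log2 of -0.66, with 2.67 to 3.04 CPM at 0 h and 1.60 to 2.28 CPM at 48 h in C/EBPδ-inducible cells, where 24 to 62 counts per library lay behind each value over all times, and 158 to 163 and 168 to 174 CPM in CTRL cells. As given above, the call of HOXB7 was lost without C/EBPδ-inducible 8 h replicate 1. That of HOXB8 was lost in 9 of the fits that left out a library. The cause was not tested.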

How the results depend on the processing

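The counts of HOX genes called between the lines stayed within 1.5 times of their values under all alternatives, and no direction of a called gene reversed. Leaving out a library gave counts of 13 to 14 (0 h), 12 to 13 (8 h), 13 to 15 (24 h) and 14 to 16 (48 h) between the lines. Against 0 h, it gave 4 to 4, 1 to 1 and 5 to 7 in CTRL cells and 2 to 3, 2 to 3 and 2 to 5 in C/EBPδ-inducible cells at 8, 24 and 48 h, and for the interaction 1 to 2, 0 to 1 and 0 to 1. The cause of the following changes was not tested. In CTRL cells at 24 h against 0 h (1 gene called), 2 passed an FDR of 0.05 and 3 passed with DESeq2, without the filter or in a model of only the groups compared, which added HOXB6 and HOXB9. In C/EBPδ-inducible cells at 8 h (2 called), 4 passed an FDR of 0.05 and 4 passed without the filter, and at 24 h (4 called), 2 passed in a model of only the groups compared. For the interaction, limma called 4 at 8 h, 1 passed at 24 h at an FDR of 0.05 or in a model of only the groups compared, and at 48 h 2 passed at an FDR of 0.05, with DESeq2 or without the filter, and 0 with limma. The replicate block left the counts at 13, 12, 15 and 16 between the lines at 0, 8, 24 and 48 h, 4, 1 and 7 in CTRL cells, 2, 4 and 5 in C/EBPδ-inducible cells and 2, 0 and 1 for the interaction, so that pairing changed no count of HOX calls. Of 590 single values under alternatives other than leaving out a library, 569 kept their call or level, 13 lost their call and 8 levels moved on exon bases free of overlap. Depth limits the 23 HOX genes that were not tested and the genes with 3 counts or fewer per C/EBPδ-inducible library.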
